A study of Mus musculus with 25 samples.

Results

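Trimethylated lysine 79 of histone H3 (H3K79me3) was called together with the dimethylated form (H3K79me2) in 2770 regions of wild-type (WT) mouse embryonic stem cells (mESCs), and these regions are described here. They were chosen by the WT peak calls alone. H3K79me3 peaks of WT replicates 1 and 2 were merged where they overlapped by at least 1 bp, merged regions with a peak of both lists were kept, and a region was a member if it shared at least 1 bp with an H3K79me2 region found in the same way. The 2770 members are 55.9% (Wilson 95% interval 54.6 to 57.3%) of the 4952 H3K79me3 regions found in both WT lists, and 2182 regions had no such overlap. They cover 3348430 of the 4818591 bases under those H3K79me3 regions, or 69.5%. Both lists carry weight in this count: the list of WT replicate 1 alone gives 8085 members, and that of WT replicate 2 alone gives 4081.

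Methyl groups are added to lysine 79 of histone H3 by Dot1L, which acts without a SET domain and can add one after another, so that di- and trimethylation mark nucleosomes that have met the enzyme. Dot1L is brought to chromatin with factors that bind transcribing RNA polymerase II, and both marks are known from the first part of transcribed genes. Dimethylation is the more widespread form.

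The chromatin data were chromatin immunoprecipitations (ChIP) from untreated mESCs of the v6.5 strain, with antibody ab3594 for H3K79me2 and ab2621 for H3K79me3, each in 2 WT libraries and 2 libraries of Dot1L knockout (KO) cells. RNA of untreated v6.5 mESCs was sequenced in 3 WT and 2 Dot1L KO libraries, and RNA of wild-type 8-cell embryos in 2 pools given DMSO and 2 given the Dot1L inhibitor SGC0946. Embryos came from a cross of B6D2F1 with Cast/EiJ and were collected 56 hours after fertilization in pools of 30 to 35. The labels do not say how many KO clones were used, which exons were removed, or whether replicates came from separate cultures, so p-values measure the spread between these libraries, which may be technical. Read depth of the ChIP libraries is unknown, because peak lists give no counts. RNA libraries held 26860390 to 33754956 estimated counts in mESCs and 24950199 to 32479590 counts in embryos.

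Sequences of gene starts under or beside members are shown first. The most upstream member of a gene mostly began within 1000 bases after the nearest listed start, and few members lie over a start. Each window is 300 bases of RefSeq sequence (GRCm38.p6), 5′ to 3′ on the gene's strand, with 250 bases before the annotated start. Capitals mark the bases inside the H3K79me3 region. The first 3 are the members of highest rank that cover a start, where rank follows the lower of the 2 WT −log10 q values. Rps19, Dhx9 and Nop58 were picked after their values were seen, as a ribosomal protein gene with a covered start and as 2 of the 10 highest members, which begin inside the window. They lie at chr2:144270523-144270822 on the minus strand (Snx5), chr8:20552177-20552476 minus (Gm40469), chr6:117908156-117908455 minus (4933440N22Rik), chr7:24884663-24884962 plus (Rps19), chr1:153487611-153487910 minus (Dhx9) and chr1:59684756-59685055 plus (Nop58).
Snx5: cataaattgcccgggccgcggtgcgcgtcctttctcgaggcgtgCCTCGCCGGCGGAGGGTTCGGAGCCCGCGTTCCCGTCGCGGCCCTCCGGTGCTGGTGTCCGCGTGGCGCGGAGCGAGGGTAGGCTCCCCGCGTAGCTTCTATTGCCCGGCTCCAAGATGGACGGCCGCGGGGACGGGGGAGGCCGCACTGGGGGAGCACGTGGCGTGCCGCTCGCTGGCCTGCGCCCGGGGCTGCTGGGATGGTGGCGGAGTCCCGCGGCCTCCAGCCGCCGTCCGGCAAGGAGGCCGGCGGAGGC
Gm40469: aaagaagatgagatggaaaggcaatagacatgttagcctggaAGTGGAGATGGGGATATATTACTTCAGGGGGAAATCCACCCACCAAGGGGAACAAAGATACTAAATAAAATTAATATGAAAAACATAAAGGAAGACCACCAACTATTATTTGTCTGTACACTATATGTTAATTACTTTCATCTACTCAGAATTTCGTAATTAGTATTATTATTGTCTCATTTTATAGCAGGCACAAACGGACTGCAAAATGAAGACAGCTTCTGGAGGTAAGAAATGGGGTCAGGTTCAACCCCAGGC
4933440N22Rik: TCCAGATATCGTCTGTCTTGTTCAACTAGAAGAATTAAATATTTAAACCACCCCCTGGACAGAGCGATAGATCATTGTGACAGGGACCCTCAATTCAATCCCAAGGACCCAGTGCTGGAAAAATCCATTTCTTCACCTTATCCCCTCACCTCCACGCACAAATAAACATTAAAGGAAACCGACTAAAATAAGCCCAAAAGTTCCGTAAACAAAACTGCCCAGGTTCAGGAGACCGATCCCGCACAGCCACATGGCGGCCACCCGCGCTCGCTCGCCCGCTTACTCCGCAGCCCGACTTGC
Rps19: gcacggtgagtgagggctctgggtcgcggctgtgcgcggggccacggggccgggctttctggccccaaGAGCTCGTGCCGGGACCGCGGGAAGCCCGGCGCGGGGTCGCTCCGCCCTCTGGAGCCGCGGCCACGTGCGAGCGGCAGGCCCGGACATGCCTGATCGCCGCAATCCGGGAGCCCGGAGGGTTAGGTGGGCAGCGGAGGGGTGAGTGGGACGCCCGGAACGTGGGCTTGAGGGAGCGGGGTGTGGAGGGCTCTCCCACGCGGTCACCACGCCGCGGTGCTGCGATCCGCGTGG
Dhx9: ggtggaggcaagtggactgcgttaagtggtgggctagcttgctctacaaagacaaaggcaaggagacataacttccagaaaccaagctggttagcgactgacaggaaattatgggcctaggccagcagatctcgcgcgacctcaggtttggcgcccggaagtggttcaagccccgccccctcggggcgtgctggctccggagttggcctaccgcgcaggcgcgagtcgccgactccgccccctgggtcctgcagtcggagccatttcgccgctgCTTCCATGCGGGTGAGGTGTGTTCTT
Nop58: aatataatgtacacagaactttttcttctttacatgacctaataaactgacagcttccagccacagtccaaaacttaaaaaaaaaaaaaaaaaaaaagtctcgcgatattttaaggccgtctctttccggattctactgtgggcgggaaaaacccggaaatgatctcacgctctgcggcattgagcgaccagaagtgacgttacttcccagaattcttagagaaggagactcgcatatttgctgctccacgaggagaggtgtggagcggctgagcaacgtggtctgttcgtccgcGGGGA
Of these windows, Snx5 has 256 bases inside its member, Gm40469 258, 4933440N22Rik all 300 and Rps19 232. Dhx9 has 26 and Nop58 has 5, all after the start. The Gm40469 window holds 2 CpG, against 44 in Snx5 and 39 in Rps19.

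Windows were listed for 1205 of the 1492 protein-coding member genes, and their bases differed from those of promoters at large. For a member gene the window was that of the start nearest its most upstream member. For other genes it was the first listed by position, so the choice was not the same in both. The median member window had 25 CpG and 63.3% GC, against 13 CpG and 56.3% GC over 17492 protein-coding genes with 1 window each, and 7 CpG and 52.7% GC over all 32851 listed promoter windows of any gene. Genes with H3K79me2 but no H3K79me3 were close to the members, with medians of 22 CpG and 61.3% GC (n = 5196), and genes with neither mark had 6 CpG and 52.0% GC (n = 10841). Marks of genes are regions found in both WT lists, so a gene without a mark may hold a peak of 1 list. Motifs were searched on both strands and given as the share of windows with at least 1 match. GGGCGG, the core of a GC box, was in 69.5% of member windows, 45.9% of protein-coding windows and 35.7% of all windows, and in 67.5% of those with H3K79me2 only. CGGAAG, the core of ETS sites, was in 35.9% of member windows, 21.3% of protein-coding windows and 16.9% of all windows, and in 38.2% with H3K79me2 only. Against all windows, AAGATGG, a YY1-type sequence, was in 9.29% against 6.34%, and CACGTG, an E-box, in 11.5% against 7.15%. CCAAT was in 40.5% against 37.4%, and TATAAA in 7.39% against 13.6%. Windows with H3K79me2 only were again close to members, with AAGATGG in 8.22%, CACGTG in 11.1%, CCAAT in 40.2% and TATAAA in 5.49%. CGGAAG and AAGATGG can share 3 bases where one follows the other. Among the 57 ribosomal protein genes with a member and a window, CGGAAG was in 68.4% and AAGATGG in 14.0%. A match describes these letters and shows no binding.

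Of 1005 miRNA hairpins in the RefSeq table, 11 lay under 9 members. A member of 477 bases at chr14:115043673-115044149 held 3 of them, Mir17, Mir18 and Mir19a, which belong to a cluster transcribed as 1 precursor and known for promoting proliferation. Its enrichment was 4.58-fold in WT replicate 1 and 4.15-fold in WT replicate 2. Their mature sequences, with the seed (bases 2 to 8) in capitals, show 5 different seeds in 1 region.
mmu-miR-17-5p: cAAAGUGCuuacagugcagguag
mmu-miR-17-3p: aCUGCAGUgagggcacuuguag
mmu-miR-18a-5p: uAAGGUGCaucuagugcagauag
mmu-miR-18a-3p: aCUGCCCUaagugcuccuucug
mmu-miR-19a-3p: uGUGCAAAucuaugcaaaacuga
The other 8 hairpins under members lay in regions that also met Rps21 (Mir3091), Rpl13a (Mir5121), Atp5b (Mir677), Actg1 (Mir6935), Ddx39b (Mir6975), Sap18 (Mir3077), Gse1 (Mir7687) and the non-coding Snhg20 (Mir6516). Of 1340 annotated small nucleolar RNA (snoRNA) genes, which guide modification of ribosomal RNA and are mostly held in introns, 91 (6.79%, 5.56 to 8.27%) lay under a member, beside 195 (14.6%) under any H3K79me2 region. Of 12727 long non-coding RNA genes, 115 (0.904%) lay under a member.

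H3K79me3 at members was mostly moderate in height, with a long tail. Enrichment over background, as the authors' caller gave it, ran from 1.92 to 18.1-fold in WT replicate 1 (median 4.91) and from 1.78 to 16.2-fold in WT replicate 2 (median 4.64). The width ran from 210 to 12964 bases, with a median of 881.5 and quartiles of 537 and 1510. H3K79me3 regions without H3K79me2 had a median width of 549 bases and median enrichments of 4.21 and 4.30-fold. These values come from the calls that chose the members and are a description only. Wider members were higher, with a Spearman rho of 0.61 between width and the lower of the 2 enrichments, and the WT libraries ranked members with a rho of 0.50 (n = 2770 regions, which share libraries and calls).

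**Figure D1:**
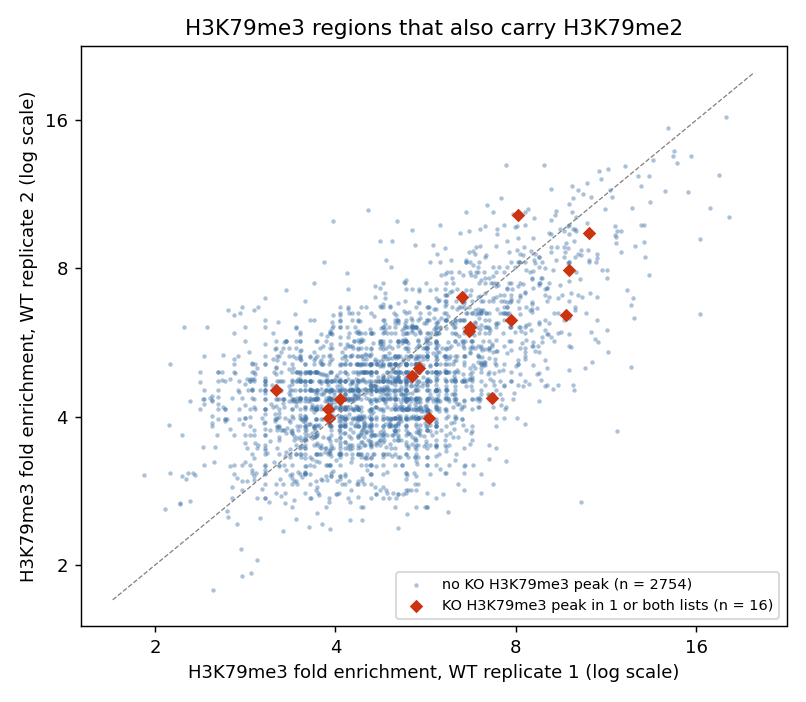
H3K79me3 fold enrichment of each of the 2770 members in WT replicate 1 (x axis) and WT replicate 2 (y axis), both on log scales, with the line of equal values dashed. Diamonds are the 16 members that met a KO H3K79me3 peak, which spread over much of the range rather than sitting at the low end.

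Most members sat wholly within dimethylated chromatin. Of the 2770, 2355 (85.0%, 83.6 to 86.3%) lay entirely inside an H3K79me2 region, and 40 (1.44%) had under 50% of their width inside one. The H3K79me2 regions that held a member were 1876 of 35907 (5.22%). They had a median width of 4397.5 bases and median enrichments of 8.04 and 7.56-fold, against 969 bases and 4.08 and 4.05-fold for H3K79me2 regions without one. Of the 1876, 1375 held 1 member, 59 held 5 or more, and the most in 1 region was 11. At the edge of the rule, the least overlap was 1 base at Foxn2, 20 bases at 6030426L16Rik and 45 bases at Tpt1. The nearest regions left out were 32 bases from H3K79me2 at Cdh3, 39 at Mettl27 and 52 at Arhgef17. Few regions were near that edge, since 1776 of the 2182 left out (81.4%) were over 10 kb from any H3K79me2 region found in both WT lists. Peaks of 1 list alone were not counted.

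Members mostly lay in genes, and the most upstream member of a gene mostly lay near a listed start. A protein-coding gene was under 2520 members (91.0%, 89.9 to 92.0%), a gene of another class alone under 132, and 118 (4.26%) were outside annotated genes. Of the H3K79me3 regions without H3K79me2, 835 (38.3%, 36.3 to 40.3%) were over a protein-coding gene and 1151 (52.7%) outside genes, so the intervals of both shares stand far apart. An annotated start was covered by 83 members (3.00%, 2.42 to 3.70%), and by 38 of the H3K79me3 regions without H3K79me2 (1.74%). Distances were taken from the listed start of the gene nearest to the region, since a gene can have several. The most upstream member is the one with the lowest signed distance, so it need not be the first along the gene. The most upstream member of each of 1205 genes with a listed start began a median of 319 bases after it (quartiles 142 and 948) and ended a median of 1785 bases after it. Of these, 806 (66.9%, 64.2 to 69.5%) began within 1000 bases after the start, 289 began farther in, 63 covered the start and 47 lay before it. Over every pair of a member and a gene with a listed start (2085), the member began a median of 1185 bases after it (quartiles 214 and 5376). The H3K79me2 region around the same member began nearer the start, at a median of 154 bases, and reached farther, to a median of 5618 bases. H3K79me2 regions without a member began at a median of 671 bases (6041 genes), and H3K79me3 regions without H3K79me2 at 8788 bases (436 genes). Neither set leaves out genes that also hold a member. In such genes the region with the member was not counted, and a later one can stand as the first. These medians therefore do not compare member genes with genes without a member.

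**Figure D2:**
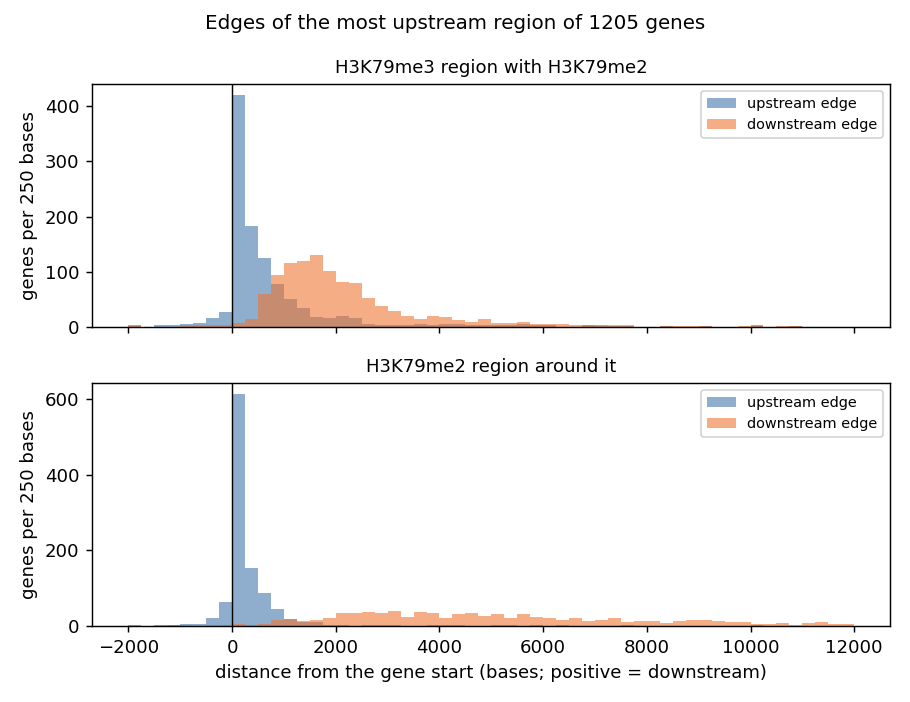
Number of genes per 250 bases of distance from the listed gene start nearest to the member (x axis, positive is downstream). Shown are the upstream and downstream edges of the most upstream member of 1205 genes (top) and of the H3K79me2 region around it (bottom). Upstream edges pile up just after the start for both marks, and downstream edges of H3K79me3 (median 1785 bases) lie before those of H3K79me2 (median 5618 bases); 77 and 289 downstream edges lie outside the plotted range.

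The 10 members of highest rank lay over genes of varied function, apart from 1 outside genes. Of these 10, 8 lay over a protein-coding gene with a listed start, began 24 (Dhx9) to 209 bases (Ptma) after it, and ended 3550 (Ptma) to 6905 bases (Slc2a1) after it. Ptma, the nuclear protein prothymosin alpha, was at chr1:86526766-86530107 with 17.9-fold in WT replicate 1 and 16.2-fold in WT replicate 2. Sfpq, a splicing factor of paraspeckles, was at chr4:127021472-127025413 with 14.3 and 15.5-fold. Dhx9, an RNA helicase, was at chr1:153482442-153487636 with 14.7 and 13.8-fold. Slc2a1, the glucose transporter GLUT1, was at chr4:119108857-119115650 with 18.1 and 10.2-fold, so here the WT libraries were less alike. The others were Pgk1 of glycolysis, Tomm20 of mitochondrial protein import, Nop58 of the snoRNA-protein complex and Srsf3 of splicing. The first and second by rank were a region over Erdr1 on chromosome X, where 21.6% of 9019 bases lay inside H3K79me2, and a region of 3678 bases on chromosome Y outside genes.

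Of the 5 widest members, Erdr1 was also among the 10 highest and the other 4 were not. The widest lay over Gpbp1 (12964 bases), Trim24 (10326), Eif4ebp1, an inhibitor of cap-dependent translation (10314), Zfp936 (9738) and Erdr1 (9019). Of the 1492 protein-coding member genes, 988 had 1 member, 270 had 2, and 77 had 5 or more. Among genes tested for RNA, those with the most were Tbl1xr1 with 14, Ppm1b with 13, and Jarid2, a cofactor of the Polycomb complex PRC2, with 12 members over 17546 bases.

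In Dot1L KO cells nearly all members were without a called peak of either mark. KO lists were not used by the rule. An H3K79me2 peak was found at 0 members in either KO list, and an H3K79me3 peak at 8 (0.289%, 0.146 to 0.569%) in KO replicate 1 and 11 (0.397%, 0.222 to 0.710%) in KO replicate 2. Of the H3K79me3 regions without H3K79me2, 102 (4.67%, 3.87 to 5.64%) and 160 (7.33%, 6.31 to 8.50%) met a KO H3K79me3 peak, more than for members in both libraries and outside the members' intervals. Intervals cover counting error only, and no test between genotypes was run on the peak calls, since an exact two-sided permutation test of 2 against 2 libraries cannot go below p = 0.333. In total 16 members met a KO peak in at least 1 list and 3 in both, which were the Erdr1 region, the chromosome Y region from 90788930 to 90792607, and a member in Zfp445, a zinc-finger protein that guards imprinted genes. At Zfp445 (chr9:122861528-122862689) the enrichment was 6.70 and 6.10-fold in WT and 5.49 and 5.41-fold in KO. The Erdr1 region had 10.6 and 9.46-fold in WT and 7.68 and 5.01-fold in KO. Of the 13 with a KO peak in 1 list, 4 were on chromosome 8 between 19982361 and 20559211 and 1 on chromosome Y, all outside annotated genes. The other 8 were in Dclk2, Trak1, Zfp808, Zfp33b, Sfrp1, Socs7, Ptch1 and Casz1.

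Gene groups differed widely in how many of their genes held a member, against 6.81% of all 21900 protein-coding genes. Of 77 cytosolic ribosomal protein genes, 76 held one, and Rps20 was the exception, with H3K79me2 only. All 14 translation factors on the list, such as Eef1a1 and Eif4g2, held one. So did 12 of 13 genes of glycolysis, all but Hk1, and 26 of 32 SR and hnRNP genes, which encode splicing and RNA-binding proteins. Of 15 pluripotency genes, 12 held a member, among them Pou5f1, Sox2, Nanog and Esrrb, and Dppa3, Lin28a and Tfcp2l1 did not. Of 7 genes of the DOT1L complex itself, Mllt6 and Mllt10 held one, and of 15 elongation factors Cdk9, Ccnt1, Ccnt2 and Supt16 did. None of 67 replication-dependent histone genes, which are short and strongly transcribed in S phase, and none of 9 lineage genes held one. The histone genes also had no H3K79me2 region in both WT lists.

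**Figure D3:**
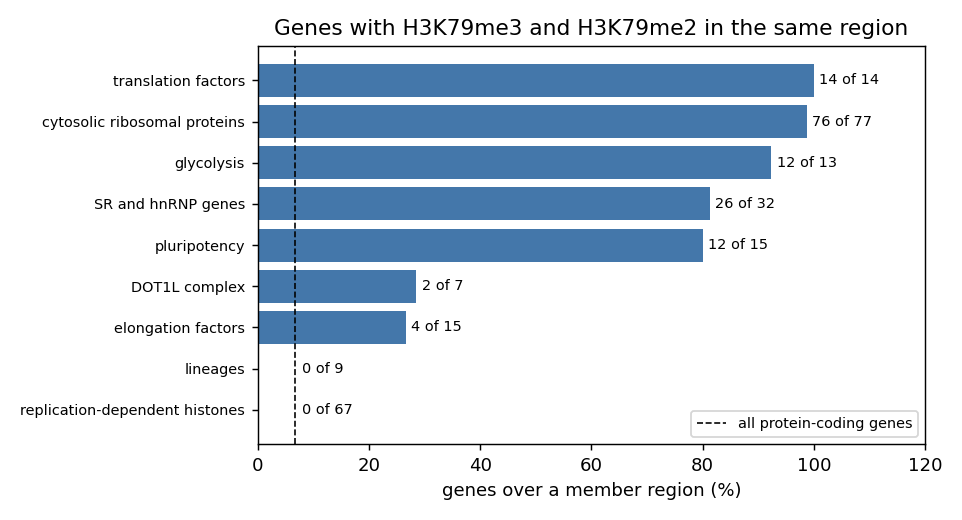
Percentage of the genes of each list that lie over a member (x axis), with the number of genes beside each bar and the share of all protein-coding genes as a dashed line (6.81%). Ribosomal protein and translation factor genes are nearly all over a member, and histone and lineage genes are at 0.

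The place of the most upstream member, here called the first, varied between these groups. In ribosomal protein genes with a listed start (57), the first member began a median of 155 bases after it and at most 349, and members covered a median of 1646.5 bases of a gene. In translation factors the median was 209 bases, in glycolysis 237.5, in SR and hnRNP genes 290 and in pluripotency genes 341. In the 4 elongation factors the median was 168.5 bases and the largest 1200, and in Mllt6 and Mllt10 of the DOT1L complex the first member began 2026 and 1007 bases in. Esrrb was unlike the rest, with 9 members over 8972 bases, of which the first began 48555 bases after the nearest listed start. Hk2, hexokinase 2, had 1 member of 8817 bases that began 292 bases after the start.

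Genes with a member were among the most highly expressed in WT mESCs. Levels are CPM, counts scaled to a common library total, and are not corrected for transcript length. The median WT level was 168 CPM over 1449 member genes, 44.9 CPM over 6281 genes with H3K79me2 only, 4.20 CPM over 280 genes with H3K79me3 only, and 3.65 CPM over 8926 genes with neither. Of protein-coding genes in the highest 20% of WT level, 1159 of 3387 (34.2%, 32.6 to 35.8%) held a member, and in the lowest 20% 2 of 3388 (0.0590%). Across member genes, the bases under members and the WT level had a Spearman rho of 0.39 (n = 1449 genes, not replicates, with level not per length).

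Dot1l, the targeted gene, was at 104, 96.9 and 99.2 CPM in the WT libraries and at 81.4 and 71.5 CPM in the KO libraries. The KO libraries were lower (log2 fold change −0.39 ± 0.06, SE; edgeR adjusted p 1.61e-04), and RNA remained in both. Dot1l itself held H3K79me2 and no member. Summed mESC markers were at 2471 to 2528 CPM in WT and 2145 to 2214 CPM in KO (3 of 6 lower, 0 higher). Primitive endoderm markers were at 16.5 to 18.5 and 44.7 to 52.9 CPM (5 of 6 higher, 0 lower). Fibroblast markers were at 143 to 184 and 194 to 248 CPM (2 of 5 tested higher, 0 lower). Trophectoderm markers had sums of 116 to 122 and 118 CPM, with 3 of 6 higher and 2 lower. Their part in the results below was not tested.

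Loss of Dot1L went with lower RNA at many member genes, by small amounts. Of 1449 member genes tested, 701 (48.4%) were lower and 179 (12.4%) higher in KO, at an adjusted p under 0.05 by edgeR's quasi-likelihood test. Over all 19532 genes tested, 43.9% were called, 21.6% lower and 22.3% higher. The median log2 fold change was −0.12 over member genes and 0.00 over all genes. It was −0.16 in KO replicate 1 and −0.08 in KO replicate 2. DESeq2 called 675 member genes lower and 161 higher, and limma-voom 721 and 183. Over all genes DESeq2 called 3505 lower and 3260 higher, and limma-voom 4212 and 4382. The split depended on scaling. With the trimmed mean of M-values (TMM), 79.7% of called member genes were lower, beside 49.2% of all called genes. With upper-quartile scaling the shares were 64.9% (533 lower, 288 higher) and 36.5% (3168 lower, 5503 higher). The median of all genes then moved to 0.07 and that of member genes to −0.05, so both shifted the same way. In bulk RNA, fewer cells of a type and less RNA per cell cannot be told apart.

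Level went with part of this pattern. Among the 20% of genes with the highest WT level, 603 of 1159 member genes were lower and 111 higher (median −0.13), as were 858 and 284 of 2044 genes with H3K79me2 only (median −0.08), and 109 and 23 of 179 genes with neither mark (median −0.20). Lower genes thus outnumbered higher ones at this level with or without a member. In the next 20% the medians were −0.08 for 207 member genes, −0.04 for 2501 genes with H3K79me2 only and −0.02 for 658 with neither. Over all levels, genes with H3K79me3 but no H3K79me2 had a median of 0.25, with 109 of 280 higher and 35 lower. They were mostly of low level. Their medians in the first 4 steps of 20%, from the lowest, were 0.46 (83 genes), 0.27 (104), 0.14 (67) and −0.03 (21). Those of all protein-coding genes in these steps were 0.29, 0.13, 0.05 and −0.03. The median did not follow the number of members per gene in order: it was −0.12 for 961 genes with 1 member (463 lower, 116 higher), −0.10 for 263 with 2, −0.11 for 150 with 3 or 4 and −0.21 for 75 with 5 or more (47 lower, 7 higher). Without the zinc-finger genes of chromosome 4 described below, the last value was −0.19 (67 genes), and these differences were not tested. The number of bases under members and the log2 fold change had a Spearman rho of −0.08 (n = 1449 genes).

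**Figure D4:**
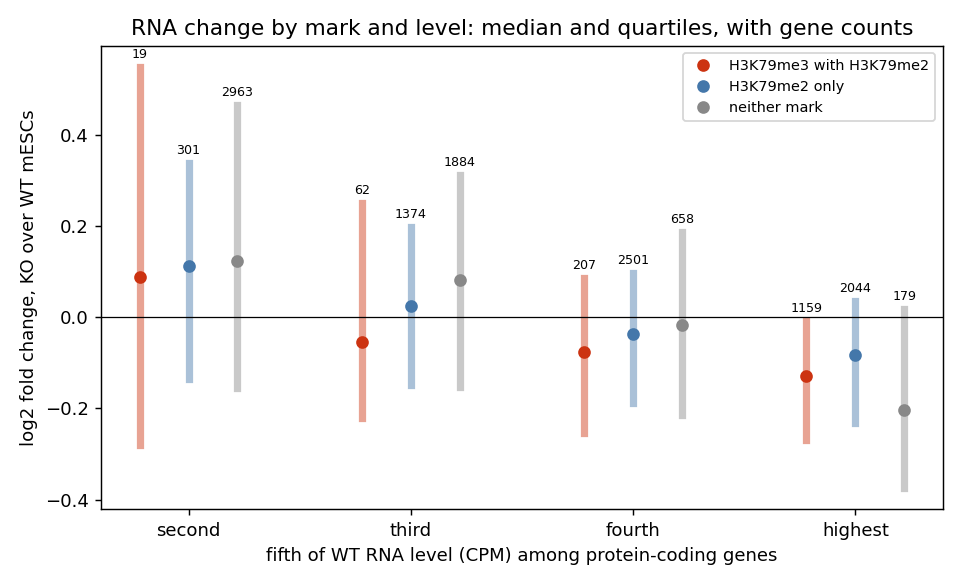
Median (point) and quartiles (bar) of the log2 fold change of KO over WT mESCs for genes with a member, with H3K79me2 only and with neither mark (y axis), in 4 steps of WT level of 20% of genes each, without the lowest (x axis), with the number of genes above each bar. Medians fall with level in all 3 groups, and in the highest step that of genes with neither mark is −0.20 and that of member genes −0.13.

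All 51 member genes of chromosome X were lower in KO, with a median of −0.88. Chromosome X genes without a member were mostly lower too, 366 of 579, with a median of −0.57 and 32 higher. Member genes on autosomes numbered 1398, of which 650 were lower and 179 higher (median −0.11), so the count of lower genes does not rest on chromosome X. The labels do not give the number of X chromosomes in either line, so a difference in X copies and the loss of Dot1L cannot be told apart in the chromosome X falls.

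The largest falls were at a cluster of zinc-finger genes and at 2 other genes. Rex2, a zinc-finger gene of chromosome 4 with 9 members, was at 617, 658 and 624 CPM in WT and at 122 and 141 CPM in KO (log2 fold change −2.26 ± 0.06, SE; edgeR adjusted p 8.15e-11). Zfp600, with 6 members, was at 231, 254 and 235 CPM in WT and at 49.1 and 55.3 CPM in KO (−2.20 ± 0.06), and Zfp978, with 11 members, fell by 2.09. In each of them every KO library was below every WT library, which the rule for named genes required. The gap was wider than the spread between libraries. They lie in a stretch of chromosome 4 whose 89 members (3.21% of all) run from 145464888 to 147696612. All 11 tested member genes there were lower, with a median of −1.59, and of 15 genes there without a member 8 were lower and 4 higher. The 89 members had a median width of 482 bases and median enrichments of 3.43 and 3.50-fold, and 0 of them met a KO H3K79me3 peak. These genes are near-identical copies and their annotated bodies overlap in part, so reads and peaks cannot be placed in 1 copy with certainty. Without them, 690 member genes were lower and 179 higher.

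Foxd3, a transcription factor of pluripotent and neural crest cells, was at 6.45, 6.46 and 6.27 CPM in WT and at 1.26 and 1.69 CPM in KO (−2.10 ± 0.16; edgeR adjusted p 2.90e-07). It held 1 member of 1413 bases. The chromosome X gene 4930519F16Rik was at 85.6, 86.3 and 91.2 CPM in WT and at 9.06 and 11.7 CPM in KO (−3.07 ± 0.08), the largest fall of any named member gene.

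The 5 largest rises by the rule for named genes were at Ier3, Egln3, Bhlhe40, Spry4 and Nol3, which have different functions. Ier3, an immediate early gene, was at 17.7, 16.8 and 17.1 CPM in WT and at 62.4 and 50.8 CPM in KO (1.72 ± 0.08; edgeR adjusted p 3.70e-09). Egln3, a prolyl hydroxylase that acts on hypoxia-inducible factors, was at 37.1, 38.5 and 33.8 CPM in WT and at 123 and 105 CPM in KO (1.64 ± 0.07), with 7 members over 8866 bases. Bhlhe40, a transcriptional repressor of the basic helix-loop-helix family, rose by 1.55, Spry4, an inhibitor of receptor tyrosine kinase signalling, by 1.40, and Nol3, an inhibitor of apoptosis, by 1.12. That WT and KO libraries do not overlap in these genes was a condition of the rule and adds no support. No member over them met a KO peak.

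Of the 76 ribosomal protein genes with a member, 45 were lower, 1 higher and 30 not called, with a median of −0.13. All member genes in the highest 20% of WT level had the same median (−0.13), with 52.0% of them lower, so the group was near other member genes of high level. Histone genes of the replication-dependent list, which have no member, were lower in 44 of 65 (3 higher, median −0.22). Among the ribosomal protein genes with a member, the 4 on chromosome X fell most, from −0.86 at Rps4x to −1.01 at Rpl36a. Of the 72 on autosomes 41 were lower and 1 higher (median −0.13). Rps4x was at 1564, 1618 and 1572 CPM in WT and at 863 and 880 CPM in KO. Rpl13a, the 1 that was higher, was at 803, 834 and 825 CPM in WT and at 914 and 921 CPM in KO (0.16 ± 0.03; edgeR adjusted p 0.00222). With upper-quartile scaling 24 ribosomal protein genes with a member were lower and 4 higher. Under that scaling 533 of all 1449 member genes were lower and 288 higher, and of all 19532 genes 3168 and 5503. Many ribosomal protein genes have near-identical pseudogene copies, so their counts are uncertain.

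Called genes of translation and splicing were nearly all lower, beside 84.5% of called member genes in the highest 20% of WT level. Of 14 translation factors 9 were lower and 0 higher, led by Eif4g2 (−0.40 ± 0.05) and Eif5 (−0.40 ± 0.04). With upper-quartile scaling 6 were lower and 3 higher, where 64.9% of called member genes and 36.5% of all called genes were lower. Of 26 SR and hnRNP genes with a member 18 were lower, 1 higher (Hnrnpul2, 0.27 ± 0.04) and 7 not called. Hnrnph2, on chromosome X, was lowest at −0.66 ± 0.05, then Hnrnph1 at −0.40 ± 0.05. Sfpq, among the 10 highest, was at 559.5, 556 and 535 CPM in WT and at 425 and 493 CPM in KO (−0.26 ± 0.05; edgeR adjusted p 0.00172). Tomm20, also among the 10 highest, was at 442, 446 and 446 CPM in WT and at 427 and 442 CPM in KO, and did not pass the test (adjusted p 0.489), so a high member did not always go with a fall.

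Glycolysis genes went the other way in part. Of 12 with a member, 5 were higher (Gpi1, Hk2, Pfkl, Pfkp and Pgam1), 2 lower (Pgk1 and Ldha) and 5 not called. Hk2 was at 516, 509.6 and 503 CPM in WT and at 732 and 690 CPM in KO (0.48 ± 0.04; edgeR adjusted p 4.26e-07). Pgk1, which is on chromosome X, was at 1927, 1841 and 1828 CPM in WT and at 1372 and 1234 CPM in KO (−0.52 ± 0.05). Slc2a1, the glucose transporter, was at 602, 569 and 568 CPM in WT and at 901 and 797 CPM in KO (0.55 ± 0.05). The KO libraries thus lay above the WT libraries in Hk2 and Slc2a1, both of which have wide members.

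Pluripotency genes were lower in 7 of 12, higher in 2 and not called in 3, with a median of −0.20. Of all 1159 member genes in the highest 20% of WT level, 52.0% were lower, with a median of −0.13. Whether the list differed from member genes of high level was not tested. Nanog, a transcription factor of the naive state, was at 499, 496 and 493 CPM in WT and at 231 and 256 CPM in KO (−1.02 ± 0.05; edgeR adjusted p 2.64e-09). Klf5 (−0.51 ± 0.06), Zfp42 (−0.46 ± 0.05), Klf2, Dppa5a, Pou5f1 and Sall4 fell less. Pou5f1 was at 693, 683 and 679 CPM in WT and at 586 and 598 CPM in KO. Tdgf1, a coreceptor of Nodal, and Utf1 were higher, at 0.32 ± 0.03 and 0.27 ± 0.06, and Sox2, Klf4 and Esrrb were not called. Of the DOT1L complex, Mllt10 (−0.31 ± 0.05) and Mllt6 (−0.13 ± 0.04) were lower. Of the elongation factors with a member, Ccnt2 was higher (0.18 ± 0.04), Supt16 lower (−0.12 ± 0.04) and Cdk9 and Ccnt1 not called. The calls of Supt16 and Mllt6 were lost in 7 and 6 of 14 alternatives, upper-quartile scaling among them.

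**Figure D5:**
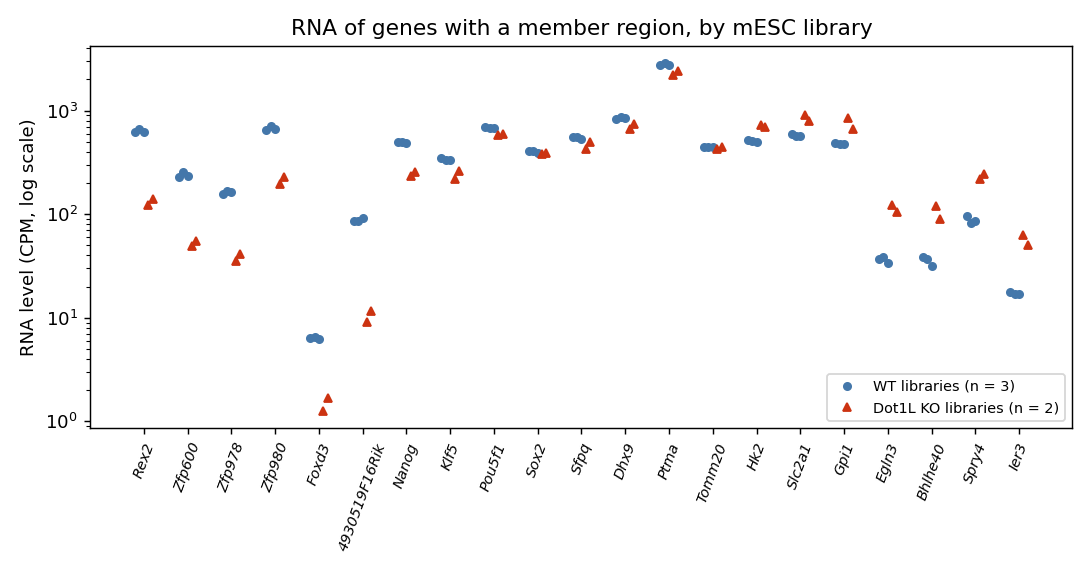
RNA level in CPM (y axis, log scale) of 21 genes with a member (x axis) in each of 3 WT libraries (circles) and 2 KO libraries (triangles) of mESCs. The zinc-finger genes at the left fall by far more than Sfpq, Dhx9 and Ptma, and Egln3, Bhlhe40, Spry4 and Ier3 at the right rise.

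In 8-cell embryos given SGC0946 no member gene passed edgeR's test with all libraries, and the count depended on the analysis. The regions were called in mESCs, and methylation of embryos was not analysed here. Of 1420 member genes tested, 0 were called by edgeR, as were 0% of all 14351 genes. At an unadjusted p under 0.05 there were 192 member genes (13.5%), 121 lower and 71 higher, against 8.15% of all genes. These shares do not take level into account. In the highest step of DMSO level, 16.2% of 889 member genes were under that p (111 of 144 lower). So were 15.1% of all 2703 protein-coding genes of that step (331 of 407 lower). The share was 12.9% with H3K79me2 only (163 of 203 lower) and 24.5% with neither mark (55 of 58 lower). Whether member genes differed from other genes of their level was not tested. Other analyses of all 4 libraries did call member genes: DESeq2 24 lower and 10 higher, limma-voom 14 and 3, and edgeR 12 and 11 without the filter on low counts and 25 and 14 with a replicate block. Over all 14351 genes DESeq2 called 89 lower and 37 higher, and limma-voom 44 and 11. Counts over all genes are not given here for the other settings. The median log2 fold change of member genes was −0.06 (all genes 0.01), with −0.11 in SGC0946 replicate 1 and −0.02 in SGC0946 replicate 2. Without SGC0946 replicate 2, 79 member genes were called, 54 lower and 25 higher, where the lone inhibitor pool is assumed to vary like the DMSO pools. Without any other single library 1 to 6 were called.

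Pluripotency and ribosomal protein genes with a member mostly had values below 0 in these embryos, without passing edgeR's test. All 12 pluripotency genes had a negative log2 fold change, 6 of them at an unadjusted p under 0.05, with a median of −0.41. Esrrb was at 315 and 289 CPM with DMSO and at 184 and 204 CPM with SGC0946 (−0.64 ± 0.13; edgeR adjusted p 0.203). Pou5f1 was at 699.8 and 716 CPM and at 458 and 547 CPM (−0.49 ± 0.12; adjusted p 0.289). The groups do not overlap in either gene, and the call depended on the analysis: over its settings the adjusted p ran from 0.00111 to 1.0 for Esrrb, which passed in 6 of 13 alternatives, and from 0.00129 to 1.0 for Pou5f1, which passed in 5, DESeq2 and limma-voom among them. Of 75 ribosomal protein genes, 65 had a negative log2 fold change and 30 an unadjusted p under 0.05, all 30 of them lower, with a median of −0.24. In the highest 20% of DMSO level the median was −0.09 both for 889 member genes and for all 2703 genes.

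The member genes with the lowest p in embryos were not among the 10 named for the largest changes in mESCs. Those genes were picked by p from the same embryo libraries, so their passing in the alternatives below adds no support. Socs3, an inhibitor of cytokine signalling, was at 255 and 214 CPM with DMSO and at 79.2 and 134 CPM with SGC0946 (−1.14 ± 0.21; edgeR adjusted p 0.203), whereas in mESCs it was higher in KO (1.08 ± 0.07). Pmaip1, a p53 target that promotes apoptosis, was at 6.0 and 5.24 CPM and at 19.1 and 24.03 CPM (1.94 ± 0.35; adjusted p 0.203), and in mESCs it was higher as well (0.54 ± 0.04). Rpl10 had −0.62 ± 0.12 and Jarid2 −0.80 ± 0.16 in embryos. In mESCs Rpl10 fell (−0.92 ± 0.04), and Jarid2 had −0.11 ± 0.04, a call that was lost in 8 of 14 alternatives. Hsp90b1 (0.67 ± 0.15) and Calr (0.56 ± 0.14), chaperones of the endoplasmic reticulum, had positive values in embryos, and in mESCs −0.10 ± 0.04 and −0.02 ± 0.04. None of these 6 genes passed edgeR's test in embryos with all libraries, and all 6 passed in some alternatives: Socs3 in 9 of 13 (adjusted p from 6.28e-09 to 1.0 over its settings), Pmaip1 in 7 (from 0.000456), Rpl10 in 7 of 12 (from 0.000332), Jarid2 in 7 of 13 (from 5.84e-08), and Hsp90b1 and Calr in 5 each (from 0.00592 and 0.0102).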

How the data were processed

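ChIP peak lists of both marks and RNA counts were used as deposited, and the 8 input libraries were not used. The submitters' processing notes name mm10, Bowtie2 and MACS2 for ChIP, kallisto for mESC RNA (with STAR and HTSeq beside it for all but the first library) and STAR and HTSeq for embryo RNA, without versions or options. Peaks were called per library by the authors, as the deposited lists show. The deposited enrichment (fold over background), the −log10 q and the score, which is 10 times the −log10 q, are the authors' own values. The deposited mESC table gives estimated counts per Ensembl gene, of which 85.1% matched RefSeq GRCm38.p6, and they were rounded to whole numbers. Embryo values were deposited as read counts per symbol, in whole numbers, and 99.3% of symbols matched. Strand settings are not given in the sources used here, so overlapping genes are uncertain.

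Members, gene lists and tests were chosen with earlier results of these data known. Overlap meant at least 1 bp, and a member gene is one whose annotated body meets a member. Shares have Wilson 95% intervals. The RNA tables were fitted separately with edgeR 4.0.16 (R 4.3.3; filterByExpr, TMM, quasi-likelihood F test, Benjamini-Hochberg over all genes tested, called at an adjusted p under 0.05), after the script was tested on simulated data. CPM were computed here with edgeR. Named were the 10 highest and 5 widest members, members with a peak in both KO lists, the 3 on each side of the overlap rule, the 5 largest changes each way among called mESC genes of at least 1 CPM with groups that do not overlap, the 3 lowest p each way in embryos, and genes of the lists. Histone genes were matched by older symbols (Hist1h to Hist4h). Alternatives were other scalings and filters, DESeq2 1.42.0, limma-voom 3.58.1, other merging and overlap rules, and leaving out each library. Peak calculations used Python 3.11.15 with pandas 2.3.3.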

Additional observations from a re-analysis of the deposited data

How the results depend on the processing

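Of the 160 alternative values of the main counts, shares and medians, 116 kept within their limits. Merging peaks within 1 kb gave a member share of 51.5%, with 92.7% over a protein-coding gene and 7.31% over a start. Peaks with a −log10 q of at least 5 gave 1414 members, a share of 65.4%, 4.53% over a start and 944 member genes. Using 1 WT list gave 4081 to 8085 members, a share of 40.8 to 55.6%, 91.6 to 93.0% over a protein-coding gene, 1.27 to 1.77% over a start and 1613 to 2926 member genes, so the share over a start is lower with either list alone. In mESCs, testing against a log2 fold change of 0.5 left 119 called member genes (19 higher, 100 lower), by the construction of that test. Over all 19532 genes it left 1024 higher and 861 lower. Upper-quartile scaling gave 288 higher member genes and a median of −0.0522, beside 5503 higher genes and a median of 0.0678 over all genes. Rps24 was called in neither direction with all libraries, and its log2 fold change was −0.0919 without KO replicate 2 and 0.0882 without KO replicate 1. In embryos, DESeq2 called 34 member genes (10 higher, 24 lower), limma-voom 17 (3 and 14), no filter 23 (11 and 12) and at least 10 counts in every library 6 (1 and 5). Over all 14351 genes, DESeq2 called 37 higher and 89 lower, and limma-voom 11 and 44. Leaving out 1 embryo library gave 1 to 79 called member genes, 0 to 25 higher and 1 to 54 lower, where the lone sample is assumed to vary like the other group. The cause of these moves was not tested. Counts outside the zinc-finger stretch of chromosome 4 were added after seeing the data. Levels per kb of transcript were not run.

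Deviations of same-numbered libraries had correlations of 0.0068 and −0.026 in mESCs and 0.052 in embryos. In embryos each replicate number gave the same value, because deviations within a pair of libraries mirror each other. With so few libraries these values cannot decide whether replicate numbers pair the samples. With a replicate block, 856 member genes were called in mESCs (169 higher, 687 lower), beside 4093 higher and 4000 lower of all 19381 genes tested. In embryos 39 member genes were called (14 higher, 25 lower), and the count over all genes is not given here.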
